A study of Aspergillus nidulans with 6 samples.

Results

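AtfA peaks were described at 6 signalling genes of *Aspergillus nidulans*, namely *ypdA* (AN2005), the MAPK kinase gene AN0931, *hogA* (AN1017, also called *sakA*), *cmkD* (AN4483, also called *srkA*), *pkaA* (AN6305) and *ptpA* (AN6982). The genes were chosen by the peaks themselves, since each interval is the stretch of chromosome that the called peaks of these 6 lists cover at the gene. Presence, position and score therefore stand below as a description, without a test. The intervals make up 6 of the 707 regions into which the peaks of all lists merge, and they hold 33 of the 2723 peaks.

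ChIP-seq was performed on conidia, the asexual spores, of a single strain, *atfA*::3XFLAG. In it the Δ*atfA* deletion, marked with *A. fumigatus* *pyrG*+, is complemented by FLAG-tagged *atfA* under the native promoter on a *pyroA*+ vector, in a *pyrG89*, *pyroA4*, *veA*+ background. All 6 libraries share this genotype, and no strain without the tag was analysed here. Conidia came from untreated cultures of 2 d, from untreated cultures of 3 d, and from 3 d cultures exposed to 0.04 mM menadione sodium bisulfite (MSB), which generates superoxide inside cells. These conditions, with 2 replicates each, are called 2 d, 3 d (both untreated) and MSB conidia, and in the plots Untr. (2 d) for the first, Untr. (3 d) for the next and MSB Tr. (3 d) for the last. The comparisons ask where AtfA sits in resting conidia of both ages and whether binding differs after the oxidant.

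The 6 lists held 434 to 473 peaks each, with a median width of 300 to 400 bp. They give no read counts, so sequencing depth is unknown. The score of a peak comes from the authors' peak caller, and its median ran from 10105 to 30216 between lists. It was therefore read as a rank or as a ratio within its own list. The score percentile is the place of a peak within its own list, where 100 is the best-scored peak. Positions are 1-based in the *A. nidulans* genome of JGI MycoCosm to which the authors aligned, and where a peak lies within a gene (promoter, UTR or coding part) was not analysed here. Every value below is given for replicate 1 and then replicate 2 of a condition.

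In the high-osmolarity glycerol (HOG) system of fungi, sensor histidine kinases pass a phosphate through the phosphotransfer protein YpdA to response regulators. The relay governs a cascade of a MAPKK kinase, a MAPK kinase (MAPKK) and the MAPK HogA. HogA accumulates in the nucleus under osmotic and oxidative stress, and the bZIP protein AtfA, of the ATF/CREB type, works downstream of it.

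Of the 6 genes, 5 had a peak in all 6 libraries and 1, AN0931, had a peak in 2 libraries. Peaks were present in 32 of 36 combinations of gene and library (88.9%). Among the 707 regions, 35.4% were held by all 6 libraries (250 regions) and 12.3% by 2 libraries (87 regions). The genes had been picked for holding peaks, so nothing was read from the comparison with these shares. The 6 genes lay on 5 chromosomes, and *hogA* and AN0931, both on chromosome VIII, were 243560 bp apart.

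**Figure D1:**
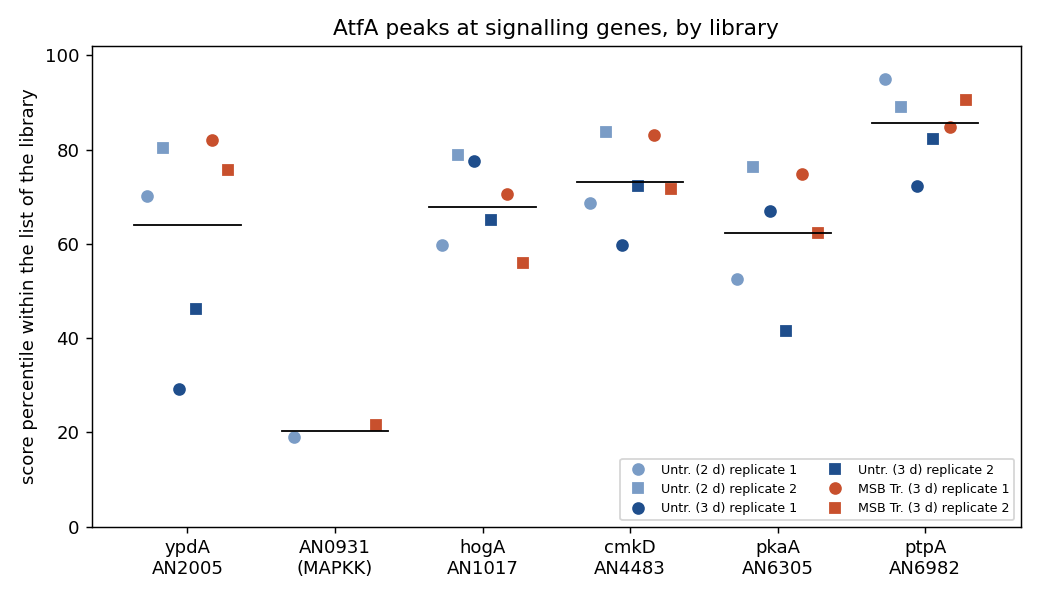
Score percentile of the AtfA peak (vertical axis, percentile within the list of the library) at each of the 6 genes (horizontal axis). Each point is 1 library, coloured by condition, with circles for replicate 1 and squares for replicate 2, and the line is the mean over libraries with a peak. *ptpA* stood highest, with a mean of 85.6, AN0931 had peaks in 2 libraries with a mean of 20.3, and the 3 d conidia points of *ypdA*, at 29.2 and 46.1, lay under its other 4 points.

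*ypdA* encodes the phosphotransfer protein between the sensor kinases and the response regulators. Its region was VII:2535641-2536240, 600 bp long. The peak stood at percentiles 70.1 and 80.4 in 2 d conidia, 29.2 and 46.1 in 3 d conidia, and 82.0 and 75.7 in MSB conidia. Both 3 d conidia libraries were low and the other 4 were high, with no overlap. The group means were 75.2 ± 7.30 (SD, n = 2), 37.6 ± 12.0 and 78.9 ± 4.43. *ypdA* thereby had the widest spread over libraries of the 5 genes with a peak in every library, with a mean of 63.9 and an SD of 21.5 (n = 6) against a median SD of 10.7 over the 250 regions held by all 6 libraries.

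The difference of MSB minus 3 d conidia was 41.2 percentile points at *ypdA*, and 97.6% of the regions held by 6 libraries had a lower one. The difference of 3 d minus 2 d conidia was -37.6 points, and 1.20% of regions had a lower one. Both differences use the same 3 d conidia libraries and are not independent of each other. The 3 d conidia libraries were below the other 4 at 2 of the 5 genes, *ypdA* and *ptpA*, as they were in 11.2% of the regions held by all 6 libraries (28 of 250). The 4 untreated libraries together averaged 56.4 at *ypdA*, 22.4 points under MSB conidia, but the MSB values fell between those of 2 d conidia and above them, so that treated and untreated libraries overlapped.

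Relative to the median score of each list, the *ypdA* peak stood at 1.29 and 1.51 in 2 d conidia, 0.81 and 0.97 in 3 d conidia, and 1.44 and 1.22 in MSB conidia, with the same low pair. Peak width did not share this order. It was 500 and 420 bp in 2 d conidia, 460 and 580 bp in 3 d conidia and 520 and 480 bp in MSB conidia, and the groups overlapped.

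The summit of the *ypdA* peak lay at 1 of 2 places about 200 bp apart. In replicate 2 of 2 d conidia and replicate 1 of 3 d conidia it was at position 2535951. In replicate 2 of 3 d conidia and both MSB libraries it was at 2536151, and in replicate 1 of 2 d conidia at 2536171. The 2 places did not follow the conditions, since each untreated condition had 1 library at either place and the MSB libraries shared 1 of them. The range of the summits was 220 bp, and 15.6% of the regions held by 6 libraries had a range as large or larger. It was the largest of the 6 genes by summit, but not by the centre of the peak, which had a range of 100 bp at *ypdA* and of 120 bp at *pkaA*. All 6 peaks covered the stretch VII:2535821-2536220 (400 bp), which holds both places.

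A second region, VII:2537301-2538120, began 1060 bp beyond *ypdA* and was held by all 6 libraries. Its percentiles were 65.2 and 65.7 in 2 d conidia, 40.7 and 28.6 in 3 d conidia, and 86.1 and 81.1 in MSB conidia. The 3 d conidia pair was again the lowest, as in 28 of the 250 regions held by all 6 libraries. Here the MSB pair was also the highest, as in 27 of those 250. On the other side, 6860 bp away, VII:2528441-2528780 was held by 4 libraries, at 43.4 and 27.3 in 2 d conidia, 57.2 in replicate 1 of 3 d conidia and 9.49 in replicate 1 of MSB conidia. There the 3 d conidia library was the highest of those with a peak. The lists hold no gene annotation, so which gene the more distant peaks belong to was not analysed here.

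**Figure D2:**
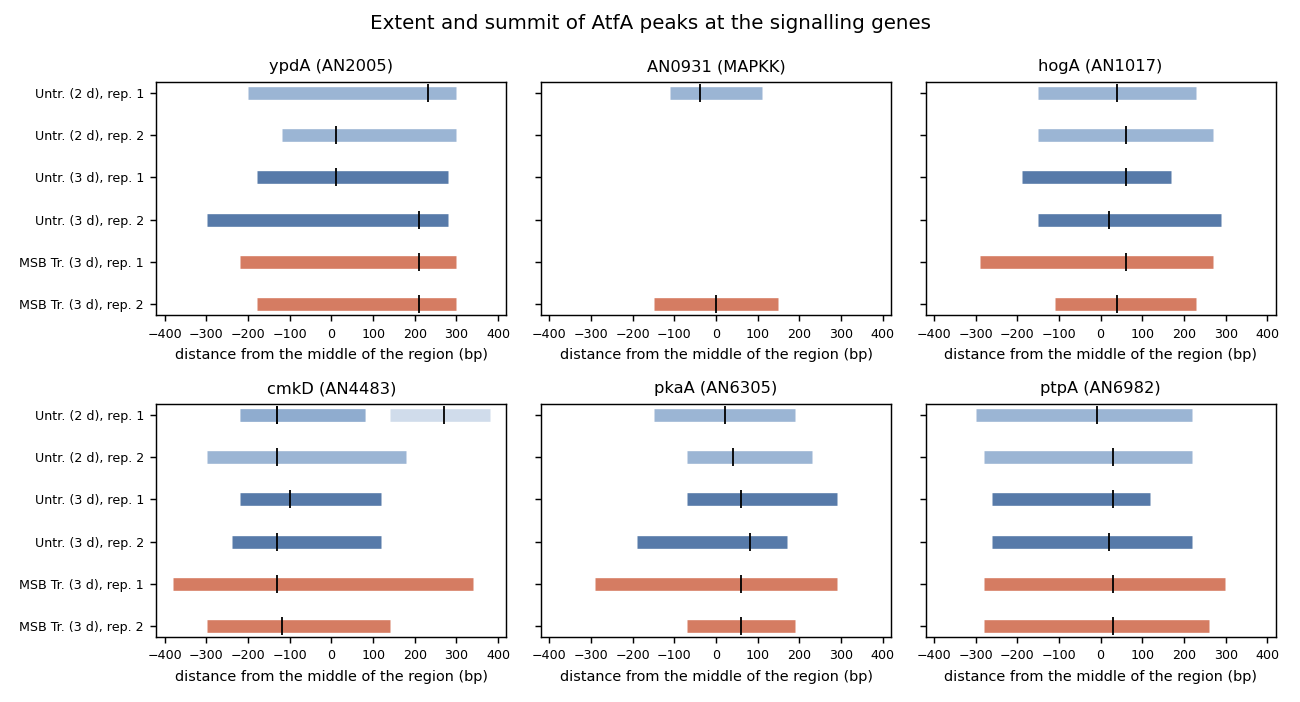
Extent of the AtfA peak in each library (bars, coloured by condition, 1 row per library) and its summit (black tick) at each of the 6 genes. The horizontal axis is the distance in bp from the middle of the region. The summits of *ypdA* fell at 2 places about 200 bp apart, those of *hogA*, *cmkD* and *ptpA* within 40 bp, and the pale bar at *cmkD* is the second peak of replicate 1 of 2 d conidia.

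AN0931 encodes the MAPKK, which phosphorylates and activates HogA, and the RefSeq table names it *pbs2*. Its region was VIII:2033881-2034180, 300 bp long and the shortest of the 6. A peak was called in replicate 1 of 2 d conidia, at percentile 19.0 (rank 378 from the top), and in replicate 2 of MSB conidia, at percentile 21.6 (rank 344). Neither condition had it in both replicates, and no 3 d conidia library had it.

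Both AN0931 peaks were narrow, 220 and 300 bp, against a shortest peak of 200 bp in every list. Their summits, at 2033991 and 2034031, were 40 bp apart, and both covered VIII:2033921-2034140. Their scores were 0.72 and 0.81 times the median of their lists. In the 4 lists without this peak the lowest score was between 0.51 and 0.54 times the median. In the lists with it, the lowest score was 0.46 times the median for replicate 1 of 2 d conidia and 0.61 times for replicate 2 of MSB conidia. Whether the lowest score of a list bears on the absent calls was not tested. An absent call says only that no peak was called there, not that AtfA was absent.

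The mean percentile of AN0931, 20.3, was near the median of 20.5 over the 87 regions held by 2 libraries. The same pair of libraries alone held 11 regions, AN0931 included. A more widely held region, VIII:2035101-2035640, lay 920 bp further along. It was at percentiles 26.4 and 37.6 in 2 d conidia, absent and 29.4 in 3 d conidia, and 39.5 and 60.0 in MSB conidia. Its highest value was in the MSB library that also held the AN0931 peak, and its lowest in the untreated library that held it.

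*hogA* encodes the MAPK at the end of the cascade. Its region was VIII:1789741-1790320 (580 bp), and the peak stood at percentiles 59.7 and 78.9 in 2 d conidia, 77.5 and 65.0 in 3 d conidia, and 70.5 and 55.9 in MSB conidia. The replicates of each condition were farther apart than the means of the conditions, and all groups overlapped. The mean was 67.9 ± 9.37 (SD, n = 6), close to the median of 68.7 for regions held by 6 libraries.

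MSB minus 3 d conidia was -8.00 points at *hogA*, the only negative value among the 5 genes held by every library. The gaps between replicates were 12.5 points in 3 d conidia and 14.6 in MSB conidia, both larger than that difference, and it ran from -15.3 without replicate 1 of MSB conidia to -0.70 without replicate 2. The difference of 3 d minus 2 d conidia was 1.90 points. It became -7.69 without replicate 1 of 2 d conidia and -4.35 without replicate 1 of 3 d conidia.

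The summits of *hogA* were tightly placed. They lay at 1790071 and 1790091 in 2 d conidia, 1790091 and 1790051 in 3 d conidia, and 1790091 and 1790071 in MSB conidia, a range of 40 bp. All peaks covered VIII:1789921-1790200 (280 bp, 48.3% of the interval). A weaker region, VIII:1792121-1792440, 1800 bp further along, was also held by all 6 libraries, with percentiles between 14.2 and 41.0 and a mean of 24.2. In each library it was lower than the *hogA* peak.

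*cmkD* encodes a calmodulin-dependent-type kinase that binds HogA. Its region was III:1898401-1899160, at 760 bp the longest of the 6. The peak stood at percentiles 68.7 and 83.8 in 2 d conidia, 59.7 and 72.2 in 3 d conidia, and 83.0 and 71.6 in MSB conidia. The highest and lowest values were both in untreated libraries, and all groups overlapped. The mean was 73.2 ± 9.09 (SD, n = 6), and 57.2% of the regions held by 6 libraries had a lower one.

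MSB minus 3 d conidia was 11.4 points at *cmkD*, with 23.3 points between the libraries of replicate 1 and -0.53 points between those of replicate 2. The difference of 3 d minus 2 d conidia was -10.3 points. The gaps between replicates, 15.0, 12.4 and 11.4 points in the 3 conditions, were about as large as these differences. The first was 5.15 points without replicate 1 and 17.6 without replicate 2 of 3 d conidia, and 5.69 without replicate 1 of MSB conidia. The second ran from -17.8 points without replicate 1 of 2 d conidia to -2.76 without replicate 2 of 2 d conidia, and was -4.06 without replicate 1 and -16.5 without replicate 2 of 3 d conidia.

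The length of the *cmkD* region came from a few libraries. Widths were 300 and 480 bp in 2 d conidia, 340 and 360 bp in 3 d conidia, and 720 and 440 bp in MSB conidia. Replicate 1 of 2 d conidia had a second, small peak (III:1898921-1899160, percentile 1.80), which set the upper end of the region. The single wide peak in replicate 1 of MSB conidia ended at 1899120, so it covered the summit of that small peak (1899051) but not its end. The stretch shared by all 6 best peaks, III:1898561-1898860, was 300 bp, 39.5% of the interval, the smallest share of the 6 genes.

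The summit of *cmkD* was at 1898651 in 4 libraries, at 1898681 in replicate 1 of 3 d conidia and at 1898661 in replicate 2 of MSB conidia. That range of 30 bp was the smallest of the 6 genes by summit. A further peak, III:1899361-1899560, lay 200 bp beyond the interval. It was called in replicate 2 of 2 d conidia alone, at percentile 21.0, and does not count among the members.

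*pkaA* encodes a catalytic subunit of the cyclic AMP-dependent protein kinase A, which acts in the germination of conidia and in vegetative growth. Its region was I:606401-606980 (580 bp). The peak stood at percentiles 52.5 and 76.4 in 2 d conidia, 66.9 and 41.5 in 3 d conidia, and 74.7 and 62.3 in MSB conidia. Replicates of each untreated condition were far apart, by 23.8 and 25.4 points, where the median gaps over regions held by 6 libraries were 12.8 and 7.85 points. The conditions overlapped.

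The mean of *pkaA* was 62.4 ± 13.4 (SD, n = 6), the lowest of the 5 genes held by every library. MSB minus 3 d conidia was 14.3 points, between 1.60 without replicate 2 of 3 d conidia and 27.1 without replicate 1. The difference of 3 d minus 2 d conidia was -10.3 points, and it became 2.45 without replicate 2 of 3 d conidia and 1.65 without replicate 2 of 2 d conidia.

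The peak at *pkaA* was 340 and 300 bp wide in 2 d conidia, 360 bp in both 3 d conidia libraries, and 580 and 260 bp in MSB conidia. The MSB libraries thus held both its widest and its narrowest peak. Summits lay between 606711 and 606771, a range of 60 bp, and all peaks covered I:606621-606860 (240 bp, the shortest such stretch among the genes held by every library). The nearest other regions were 22420 bp and 79300 bp away, so the *pkaA* peak stood alone.

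*ptpA* encodes a protein tyrosine phosphatase that binds HogA. Its region was IV:1404861-1405460 (600 bp). The peak stood at percentiles 94.9 and 89.1 in 2 d conidia, 72.2 and 82.2 in 3 d conidia, and 84.9 and 90.5 in MSB conidia. Replicate 1 of 2 d conidia was the highest, with rank 25 of 473 peaks, and both 3 d conidia libraries lay under the other 4.

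With a mean of 85.6 ± 7.94 (SD, n = 6), *ptpA* was above 79.2% of the regions held by 6 libraries. It was the highest of the 5 genes in 5 of 6 libraries, and in replicate 1 of 3 d conidia *hogA* was the highest. It was above *ypdA*, *cmkD* and *pkaA* in 6 of 6 libraries, by 21.7 ± 15.8, 12.5 ± 8.95 and 23.2 ± 16.1 points (SD, n = 6), and above *hogA* in 5 of 6. The other neighbours in order, *cmkD* (73.2), *hogA* (67.9), *ypdA* (63.9) and *pkaA* (62.4), differed by less than the SD of their paired differences.

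MSB minus 3 d conidia was 10.5 points at *ptpA*, where 75.2% of regions had a lower one, and 3 d minus 2 d conidia was -14.8 points, where 11.6% did. Neither pair of groups overlapped. The first was 5.56 points without replicate 1 of 3 d conidia, and the second was -9.84 points without it. Relative to the median score of the list, however, the peak stood at 2.22 and 1.78 in 2 d conidia, 1.29 and 1.51 in 3 d conidia, and 1.48 and 1.40 in MSB conidia, and on this scale MSB and untreated 3 d libraries overlapped while 2 d conidia stayed above both. The scores of the MSB lists were packed more closely, with a best score 4.47 and 2.75 times the lowest, against 6.85 to 10.9 times in the untreated lists. The part of this in the difference between the scales was not tested.

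The *ptpA* peak was 520 and 500 bp wide in 2 d conidia, 380 and 480 bp in 3 d conidia, and 580 and 540 bp in MSB conidia. Both MSB peaks were wider than all 4 untreated ones, at 1 of the 5 genes and in 12.4% of the regions held by 6 libraries. The summit was at 1405191 in 4 libraries, at 1405181 in replicate 2 of 3 d conidia and at 1405151 in replicate 1 of 2 d conidia. The nearest other regions were 38600 bp and 121700 bp away, so that *ptpA*, like *pkaA*, had no second peak close by.

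**Figure D3:**
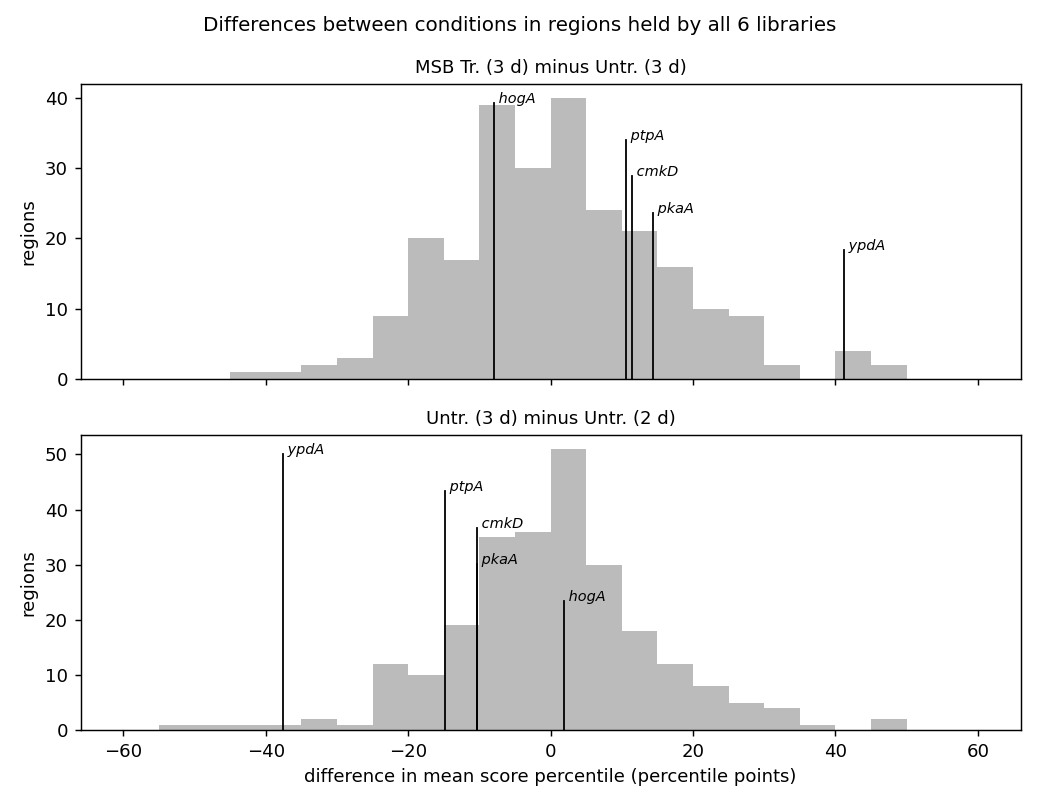
Differences in mean score percentile (horizontal axis, percentile points) for MSB minus 3 d conidia (upper panel) and 3 d minus 2 d conidia (lower panel). Grey bars count the 250 regions held by all 6 libraries in bins of 5 points, and labelled lines mark the 5 genes among them, their heights set only for legibility. *ypdA* lay far to the right above (41.2) and far to the left below (-37.6), and the panels share the 3 d conidia libraries.

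Set side by side, MSB minus 3 d conidia was 41.2 points at *ypdA*, 14.3 at *pkaA*, 11.4 at *cmkD*, 10.5 at *ptpA* and -8.00 at *hogA*. The median of these 5 was 11.4 points, and that of all regions held by 6 libraries was 0.11. The groups did not overlap at 2 of the 5 genes, *ypdA* and *ptpA*, both with MSB above, as they did not in 54.4% of the regions held by 6 libraries (136 of 250, of which 73 had MSB above and 63 below). The choice of the genes used these peaks, and nothing was read from that count.

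The difference of 3 d minus 2 d conidia was -37.6 points at *ypdA*, -14.8 at *ptpA*, -10.3 at *cmkD*, -10.3 at *pkaA* and 1.90 at *hogA*, with a median of -10.3 points, and of 0.85 over all regions held by 6 libraries. The groups did not overlap at 2 of the 5 genes, again *ypdA* and *ptpA*, with 3 d conidia below, and in 34.4% of the regions (86 of 250, 43 in each direction). Against all 4 untreated libraries, the MSB libraries were apart at 0 of the 5 genes and in 18.8% of the regions (47 of 250). By score percentile, the libraries of the conditions overlapped at *hogA*, *cmkD* and *pkaA* in every one of these comparisons.

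**Figure D4:**
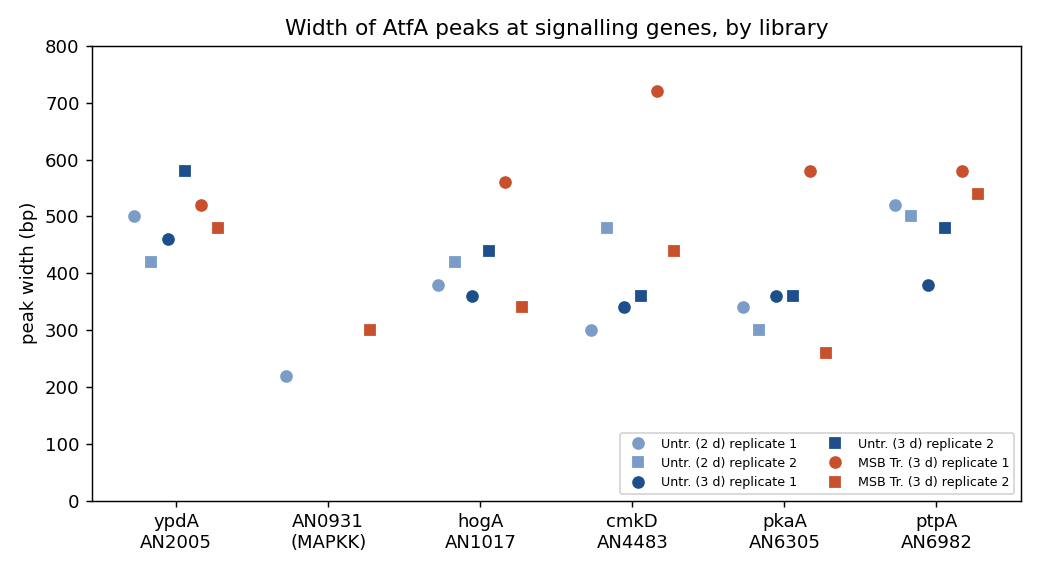
Width of the AtfA peak in bp (vertical axis) at each of the 6 genes (horizontal axis), with 1 point per library, coloured by condition, circles for replicate 1 and squares for replicate 2. Replicate 1 of MSB conidia held the widest peak at 4 genes, at 560 bp for *hogA*, 720 bp for *cmkD*, 580 bp for *pkaA* and 580 bp for *ptpA*.

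Replicate 1 of MSB conidia held the widest peak at 4 of the 5 genes, all but *ypdA*, and in 38% of the regions held by 6 libraries (95 of 250). That library also had the widest peaks in general, with a median width of 520 bp over those regions against 380 to 460 bp in the other 5. The 5 genes had a median width of 580 bp in it and 360 to 440 bp in the others. Replicate 2 of MSB conidia did not share the widening at *hogA* (340 bp) and *pkaA* (260 bp), where it held the narrowest peak.

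The range of summits was at most 40 bp at 3 of the 5 genes, *hogA*, *cmkD* and *ptpA*, and in 33.6% of the regions held by 6 libraries (84 of 250), whose median range was 70 bp. It was 60 bp at *pkaA* and 220 bp at *ypdA*. Peak edges in the lists lie on a grid of 20 bp, so the smallest of these ranges are near the resolution of the calls. At *hogA*, *cmkD*, *pkaA* and *ptpA* the summit lay within 60 bp across both ages of conidia and MSB. The centres of the peaks were spread more widely there, over 80 bp at *hogA*, 60 bp at *cmkD*, 120 bp at *pkaA* and 80 bp at *ptpA*.

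All 6 genes were found in the RefSeq table, on the chromosome of their peaks. There *hogA* lies next to *gpaB* (AN1016), AN0931 next to *glr1* (AN0932) and *pkaA* next to *tim13* (AN6306). These neighbours were named after the values had been seen. The 14 further genes listed for these pathways, 8 of the HOG branch, 2 of protein kinase A and 4 of the pheromone MAPK module, were all in the RefSeq table, but that table is of another assembly than the peak lists, so peaks at them were not analysed here.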

How the data were processed

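Anti-FLAG ChIP-seq libraries were sequenced as single reads of 75 bp. Per the labels and the study's methods, the authors aligned reads with Bowtie2, handled them with SAMtools, cleared PCR duplicates with Picard, scaled coverage to RPKM with deepTools and ran MACS2 on each library separately, without pooling. The use of an input control in peak calling is not given in the sources used here. The study states that MACS2 found the peaks in bedGraph files. The deposited score of a peak is a whole number that the labels do not define, and raw scores were not compared between libraries. A further 3 columns of each list hold 0 throughout and were not used. Each list ends at its own lowest score.

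From the lists, a peak counted for a gene when it overlapped the interval by at least 1 bp, and the best-scored peak carried the values where a library had several. The score percentile is the average rank of the score within its list, divided by the number of peaks, times 100. Peaks of all lists were merged into regions at an overlap of at least 1 bp. No test was made. The members, their intervals, their assignment to genes and the pathway list were chosen with earlier results of these data known, and the assignment could be checked only by chromosome. By rule the genes named are the 6 members and other regions are named by position only, apart from 3 adjoining genes of the RefSeq table that were named after the values had been seen. Replicates are 2 per condition and were called biological in the study, but the labels do not say that they came from separate cultures. Alternatives were a larger overlap, the summit in the interval, the 300 best peaks, ranks by width or by score over the list median, merging within 100 bp, the centre of the peak in place of the summit, a replicate block, each library left out and, chosen after seeing the data, ranks within the regions held by all 6 libraries. Python 3.11.15 with pandas 2.3.3, numpy 2.4.6 and matplotlib 3.10.9 was used, and the scripts were tested on simulated data. With no read counts in the lists, depth and the precision it gives are unknown. RefSeq assembly ASM1142v1 gave names and gene order only. Promoter and protein sequences were not analysed here.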

Additional observations from a re-analysis of the deposited data

How the results depend on the processing

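Of 215 values recomputed under the alternatives, 179 kept their sign and moved by less than the spread between replicates (counts and shares by little), 24 moved more and 12 turned their sign. The cause was not tested. Some of the 179 were fixed in advance and say nothing on stability. The 7 values with the summit in the interval could not change, since each interval covers every peak merged into it. Nor could the 5 of a replicate block, or presence at the 5 genes held by every library when a library was left out. The mean percentile of AN0931 also stays when a library without its peak is left out. Ranking by peak width turned MSB minus 3 d conidia to 0.85 points at *hogA*, -6.80 at *ypdA* and -2.02 at *pkaA*, and 3 d minus 2 d conidia to -8.49 at *hogA*, 2.19 at *ypdA* and 5.42 at *pkaA*. It moved MSB minus 3 d conidia to 26.4 points at *cmkD*. By width rank, MSB and untreated 3 d libraries were apart at *cmkD* and *ptpA*, and no longer at *ypdA*. On the same ranks, 3 d and 2 d conidia were apart at *hogA* and *ptpA*, and overlapped at *ypdA*. With the score over the list median, the latter was -0.0452 (a difference of ratios) at *hogA*, and MSB and untreated 3 d libraries stayed apart at 1 gene, *ypdA*, in place of 2. Leaving out each library in turn gave 3 d minus 2 d conidia from -7.69 to 11.5 points at *hogA* and from -23.0 to 2.45 at *pkaA*, and AN0931 was held by 20.0% of the libraries left without replicate 1 of 2 d conidia or replicate 2 of MSB conidia. A replicate block gives the same mean difference by construction, 41.2 points at *ypdA*. Within replicate 1 it was 52.8 there and within replicate 2 29.6, and at *cmkD* replicate 2 gave -0.53. Whether the numbers mark shared cultures is not in the labels. With the 300 best peaks, AN0931 was held by 0 libraries and *ypdA* by 83.3% of them, so that 4 genes in place of 5 were held by all, and peaks were present in 80.6% of combinations of gene and library in place of 88.9%. With an overlap of at least 50% of both peak and interval, *cmkD* was held by 50.0% and *pkaA* by 83.3% of libraries. All libraries held 3 genes, and peaks were present in 77.8% of combinations. Every member peak lies inside its interval, so this setting drops only peaks narrower than 50% of the interval. By the centre of the peak in place of the summit, all 6 ranges moved, as given for the 5 genes above and to 0 bp at AN0931. Ranks within the regions held by all 6 libraries lowered the mean percentile to 40.8 at *pkaA*, 46.0 at *ypdA*, 47.2 at *hogA*, 56.1 at *cmkD* and 75.6 at *ptpA*, since weaker peaks were left out, made MSB minus 3 d conidia -13.5 points at *hogA*, and at *ptpA* made it 16.6 and 3 d minus 2 d conidia -24.8 points. Motif matches in promoters, planned as a further alternative, were not run. With 2 replicates and no read counts, differences under the gaps between replicates could not be resolved.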
